A study of Mus musculus with 6 samples.

Results

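Transcripts of amino acid and peptide transporters were measured in mouse bone marrow progenitors separated by a reporter that makes green fluorescent protein (GFP) from the locus of Hes1, a target of Notch signalling. Members were the genes whose symbol starts with Slc1a, Slc3a, Slc6a, Slc7a, Slc15a, Slc36a, Slc38a or Slc43a, and they comprised 68 of the 18193 genes with a probe set of their own, on 133 of 45037 probe sets. The genes were chosen by symbol, and the probe set that stands for each was selected on its mean intensity across the 6 arrays, not on the difference between groups, although the family was proposed with that difference known. The 68 symbols include 3 opposite-strand genes (Slc36a1os, Slc6a19os and Slc7a6os), which are named after a neighbouring carrier and are not carriers themselves. They also include the monoamine carriers Slc6a2, Slc6a3 and Slc6a4, the creatine carrier Slc6a8 and the purine carrier Slc43a3, so the symbol stems reach beyond amino acids and peptides.

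GFP-positive and GFP-negative cells were both lineage-negative, c-Kit-positive and Sca-1-negative, the surface phenotype of myeloerythroid progenitors, and both came from male mice aged 6 weeks with the genotype Hes1 GFP/WT. Each group had 3 Affymetrix arrays, made from 5 ng of amplified total RNA per sample. The labels do not give the animals behind the arrays, so the p-values rest on a spread between arrays that may be technical rather than biological. Hes1 itself, which checks the labels, lay at log2 intensities of 7.20, 7.12 and 7.13 in GFP-positive arrays, against 5.74, 6.01 and 5.90 in GFP-negative arrays. Of the genes of the sorted phenotype, Kit lay between 11.13 and 11.24 in GFP-positive arrays, against 11.31 to 11.53 in GFP-negative arrays, and the Sca-1 gene Ly6a has no 1-gene probe set in the annotation used here. With 3 arrays a group, their number limits the precision.

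Amino acids cross membranes through several carrier families. Slc7 light chains join an Slc3 heavy chain and swap one amino acid for another, Slc1, Slc6 and Slc38 carriers draw substrates in with sodium, Slc36 and Slc15 carriers use protons, and Slc43 carriers let large neutral amino acids pass down their gradient. Blood progenitors depend on such carriers for protein synthesis, and erythroid cells in addition take up glycine for heme. Several members sit on lysosomes, where they pass amino acid signals to the growth kinase mTORC1.

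Most transporter genes did not pass the test, and those that did ran in both directions. Of the 68 member genes, GFP-positive arrays were higher for 11 and lower for 5, at a limma p adjusted over all probe sets (Benjamini-Hochberg) under 0.05. The higher share was 16.2%, beside 8.15% of all 18193 genes, and the lower share 7.35%, beside 9.92%. The 11 higher genes were Slc15a1, Slc6a20a, Slc38a5, Slc43a1, Slc7a7, Slc7a4, Slc1a4, Slc6a13, Slc6a9, Slc7a3 and Slc6a2. The 5 lower genes were Slc7a6, Slc43a2, Slc7a8, Slc36a1 and Slc36a4. Fewer cells of a type and less RNA per cell cannot be told apart in such sorted pools. The groups did not overlap for 35 member genes, or 51.5%, beside 45.6% of all genes. The median log2 change of the members was 0.20, beside 0.11 for all genes. Above the median intensity of all probe sets, the member median was 0.0197, beside 0.0420 for all genes. With the array medians subtracted, 19 members were higher and 5 lower, so that 79.2% of their calls were higher in place of 68.8%. For all genes that share was 60.8% in place of 45.1%, and their median moved to 0.19. Leaving out GFP-positive array 3 gave 7 higher members, leaving out GFP-negative array 2 gave 6, and leaving out GFP-negative array 3 gave 7. The higher calls among all genes were 768, 663 and 614 in the same settings, beside 1482 with all arrays. The counts were 5 higher and 3 lower without both arrays that carried the most immunoglobulin signal (GFP-positive array 1 and GFP-negative array 3), where 379 of all genes were higher and 929 lower.

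**Figure D1:**
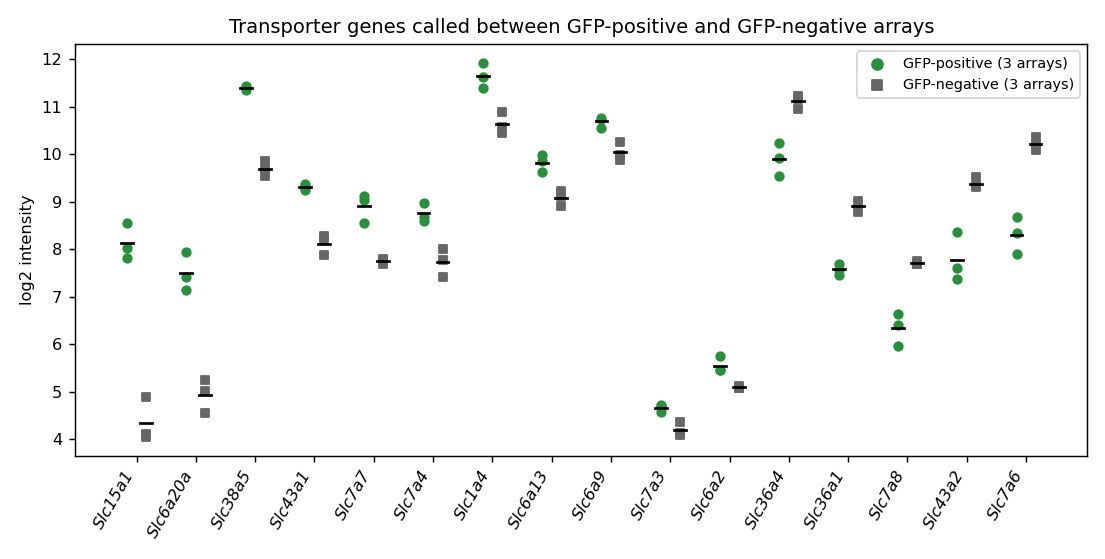
Log2 intensity of the 16 member genes called between the groups, ordered by log2 change, with GFP-positive arrays (green circles) left of GFP-negative arrays (grey squares) and a black line at each group mean. In each gene the 3 arrays of a group lie on the same side of the other 3, and Slc15a1 has the widest gap, with means of 8.13 and 4.35.

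By mean intensity, 31 member genes lay above the median of all probe sets and 37 below it. Of the 16 member calls 14 lay above the line, or 87.5%, a share close to the 86.9% of all 3287 gene calls. Of the 31 members above the line, 9 were higher (29.0%), beside 11.2% of all genes above it. Another 5 of the 31 were lower (16.1%), beside 15.4% of all genes above the line. The median log2 change of these 31 was 0.0197, beside 0.0420 for all genes above the line. Slc15a1 and Slc6a20a were above it through their GFP-positive arrays alone. Of the 37 members below the line, 2 were higher and 0 lower, or 5.41% higher, beside 3.71% higher and 2.05% lower among all genes below it. Of these 37, 34 had a log2 difference above 0, or 91.9%, beside 79.3% of all genes below the line, and their median was 0.22, beside 0.16. No detection calls were used, so whether a dim probe set measured its transcript or background was not tested.

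**Figure D2:**
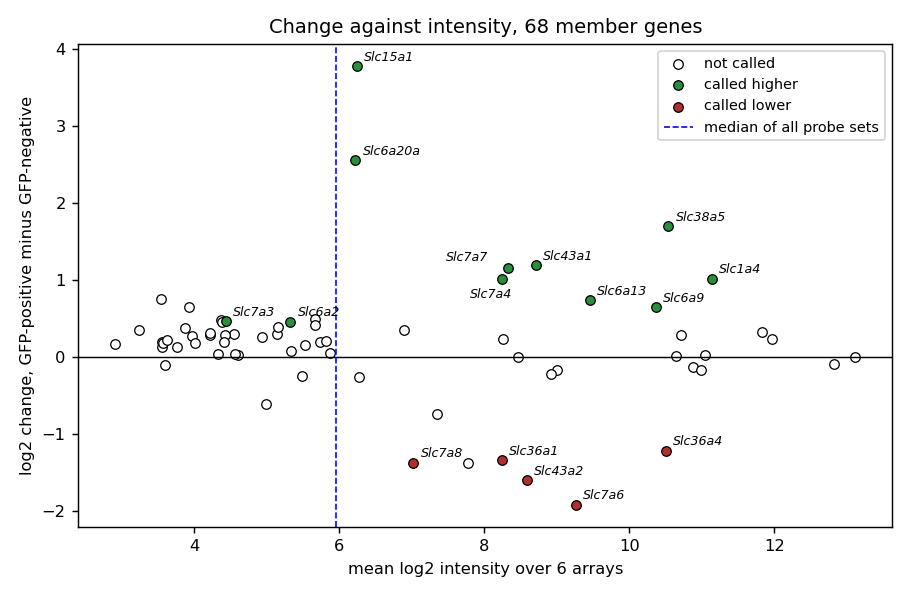
Log2 change of each of the 68 member genes (GFP-positive minus GFP-negative) against its mean log2 intensity over the 6 arrays, with called genes filled and named. The blue dashed line marks the median over all probe sets, 5.96, and 14 of the 16 calls lie to its right (87.5%, beside 86.9% of the calls over all genes).

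Promoters of 5 called members are shown because they hold a motif of interest, and that of Slc15a1 because its change was the largest among the members. RefSeq promoters of assembly GRCm38.p6 (250 bases before to 50 after a start) were found for 50 of the 68 member genes. The stretches below run from 100 bases before to 20 after the start, 5′ to 3′ on the strand of the gene, and capitals mark TGATGNAA on either strand, the core of the element that C/EBP and ATF factors bind in the amino acid response, or CACGTG, the E-box bound by factors such as those of lysosomal genes. They come from chr14:121505235-121505354 (minus strand) for Slc15a1, chr11:20332694-20332813 (minus) for Slc1a4, chr14:54417925-54418044 (minus) for Slc7a7, chrX:8271281-8271400 (plus) for Slc38a5, chr2:84840223-84840342 (plus) for Slc43a1 and chr11:55204240-55204359 (plus) for Slc36a1.
Slc15a1: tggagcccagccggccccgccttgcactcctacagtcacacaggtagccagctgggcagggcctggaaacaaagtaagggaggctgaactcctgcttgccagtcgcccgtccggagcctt
Slc1a4: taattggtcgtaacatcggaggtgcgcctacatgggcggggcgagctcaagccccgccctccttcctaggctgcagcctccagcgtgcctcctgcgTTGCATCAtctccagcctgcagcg
Slc7a7: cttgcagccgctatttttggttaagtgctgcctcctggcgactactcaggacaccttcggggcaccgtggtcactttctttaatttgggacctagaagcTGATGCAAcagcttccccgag
Slc38a5: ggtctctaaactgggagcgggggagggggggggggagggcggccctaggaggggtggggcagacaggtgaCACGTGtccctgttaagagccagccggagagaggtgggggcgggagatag
Slc43a1: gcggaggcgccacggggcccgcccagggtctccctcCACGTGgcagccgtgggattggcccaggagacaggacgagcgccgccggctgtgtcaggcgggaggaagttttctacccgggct
Slc36a1: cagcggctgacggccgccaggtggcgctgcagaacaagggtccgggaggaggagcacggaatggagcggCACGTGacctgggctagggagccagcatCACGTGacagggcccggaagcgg

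TGATGNAA was found in promoters of 5 of 50 member genes (10%), beside 4.51% of 27025 genes with a promoter in the table. The 5 were Slc1a4 and Slc7a7, which were called higher, and Slc7a11, Slc15a5 and Slc6a21, which were not called. CACGTG was found in 9 of 50 (18%), beside 8.09% of all. They were Slc38a5 and Slc43a1 (called higher), Slc36a1 (called lower, with 2 matches) and 6 members that were not called, Slc38a7, Slc1a6, Slc1a7, Slc6a3, Slc6a16 and Slc7a14. The GATA motif AGATAA, searched in the same way, was found in 5 of 50 (10%), beside 12.7% of all, and Slc7a7 was the called member with it. The antioxidant response core TGACNNNGC was found in 10 of 50 (20%), beside 14.0% of all. The called members with it were Slc43a1, Slc6a13 and Slc6a9 (higher) and Slc36a1 and Slc7a6 (lower). In Slc36a1 1 match overlapped an E-box. A gene counts once where any of its promoters holds a match, and a match is a description of letters and not a binding site.

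Of the 5 Slc15 peptide transporters, 1 was higher and 0 lower. Slc15a1, the proton-coupled carrier of di- and tripeptides best known from the intestine, was at 7.83, 8.02 and 8.54 in GFP-positive arrays, against 4.11, 4.05 and 4.89 in GFP-negative arrays. Every GFP-positive array was above the median of all probe sets and every GFP-negative array below it. The gene was 13.7-fold higher in GFP-positive arrays (log2 change 3.78 ± 0.29 SE, adjusted p = 0.00124), and with 1 array left out its adjusted p stayed between 0.00469 and 0.00768. A fold against such a dim group depends on the background of the arrays. Slc15a2, the second plasma membrane peptide carrier, was at 4.86, 9.09 and 6.98 in GFP-positive arrays 1, 2 and 3, against 5.36, 9.71 and 8.06 in GFP-negative arrays 1, 2 and 3. On its brightest probe set, which gave these values, Slc15a2 spanned a wide range within both groups, and the groups overlapped. Array 2 was highest and array 1 lowest in each of them. The SD was 2.12 in GFP-positive and 2.19 in GFP-negative arrays, the widest among the members in both groups. The gene did not pass (adjusted p = 0.749). Its other 2 probe sets were dim and lacked this range. Their SDs were 0.30 and 0.06 in GFP-positive arrays and 0.09 and 0.30 in GFP-negative arrays. The second of them kept the order of the arrays. The first did not, and array 2 was its lowest GFP-positive array, at 4.07. Slc15a3 and Slc15a4, carriers of histidine and peptides in endosomes and lysosomes, had log2 differences of -0.24 and -0.22 and did not pass, nor did Slc15a5 at 0.17.

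**Figure D3:**
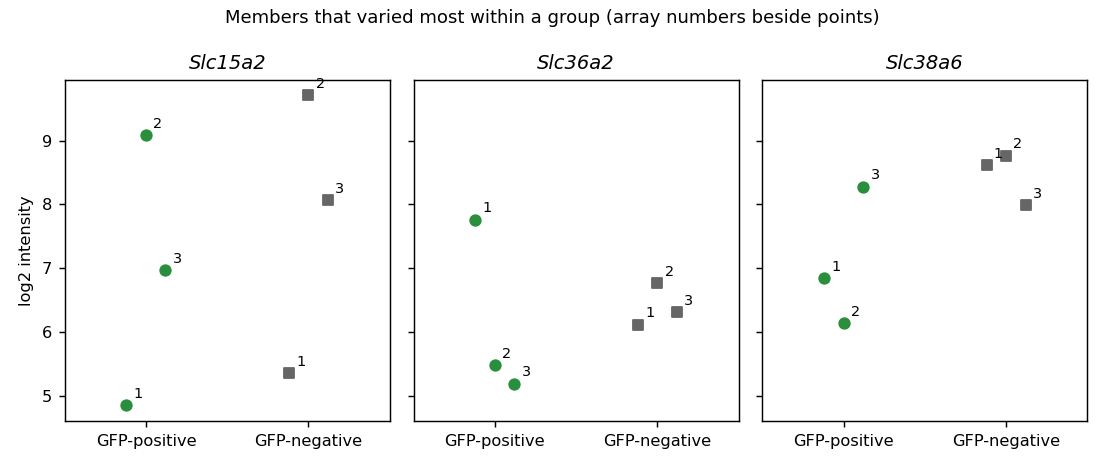
Log2 intensity per array of Slc15a2, Slc36a2 and Slc38a6, the 3 members with the widest spread in GFP-positive arrays, with the array number beside each point and GFP-positive arrays on the left. On its brightest probe set, Slc15a2 runs from 4.86 to 9.09 in GFP-positive arrays and from 5.36 to 9.71 in GFP-negative arrays.

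The Slc6 carriers that passed were all higher. Among 10 Slc6 carriers of amino acids, 2 were higher and 0 lower. Slc6a20a, a sodium-coupled carrier of proline and other imino acids, was at 7.14, 7.42 and 7.94 in GFP-positive arrays, against 5.25, 5.03 and 4.55 in GFP-negative arrays, so that the groups lay far apart relative to their spread. It was 5.87-fold higher (log2 change 2.55 ± 0.26 SE, adjusted p = 0.00246), and its neighbour in the genome, Slc6a20b, had a log2 difference of 0.13 and did not pass. Slc6a9, the glycine carrier GlyT1 that supplies glycine for heme in erythroid cells, was at 10.75, 10.56 and 10.76 in GFP-positive arrays, against 9.99, 9.88 and 10.25 in GFP-negative arrays. It was 1.57-fold higher (adjusted p = 0.0228). Leaving out GFP-positive array 1 gave an adjusted p of 0.0614 for Slc6a9 and GFP-positive array 3 one of 0.0743, while leaving out GFP-negative array 1 gave 0.0629 and GFP-negative array 2 gave 0.0759. The other 8 (Slc6a5, Slc6a7, Slc6a14, Slc6a15, Slc6a17, Slc6a18, Slc6a19 and Slc6a20b) are carriers of glycine, proline and neutral amino acids mostly known from brain, kidney and intestine. These 8 had log2 differences from -0.10 to 0.66 and did not pass. Slc6a14 and Slc6a19 lay just outside the threshold (adjusted p = 0.0520 and 0.0653).

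Of 5 Slc6 carriers of GABA, betaine, taurine and creatine, 1 was higher. Slc6a13, a carrier of GABA and taurine, was at 9.85, 9.63 and 9.98 in GFP-positive arrays, against 9.13, 8.91 and 9.22 in GFP-negative arrays. It was 1.66-fold higher (adjusted p = 0.0171). Leaving out GFP-positive array 3 gave an adjusted p of 0.0540, and leaving out GFP-negative array 2 one of 0.0587. The taurine carrier Slc6a6 averaged 10.65 ± 0.19 in GFP-positive arrays and 10.63 ± 0.04 in GFP-negative arrays (SD, n = 3 each), and the creatine carrier Slc6a8 had a log2 difference of 0.50 and an adjusted p of 0.0709. Slc6a11 and Slc6a12, GABA and betaine carriers, were dim with differences of 0.03 and 0.13. Among the 3 monoamine carriers, Slc6a2, the noradrenaline carrier, was 1.38-fold higher at a dim level, with 5.45, 5.45 and 5.75 in GFP-positive arrays, against 5.08, 5.07 and 5.13 in GFP-negative arrays (adjusted p = 0.0441). That call did not hold when any single array was left out (adjusted p from 0.0606 to 0.126), and 1 of its 4 probe sets was called. The dopamine and serotonin carriers Slc6a3 and Slc6a4 had differences of 0.40 and 0.37, and the orphans Slc6a16 and Slc6a21 of 0.29 and 0.27, none of which passed.

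The heteromeric exchangers changed in their light chains in opposite directions. Slc3a2, the heavy chain 4F2hc that carries most of these light chains to the cell surface, was at 11.25, 10.95 and 10.97 in GFP-positive arrays, against 10.99, 10.96 and 11.14 in GFP-negative arrays, and the groups overlapped (log2 difference 0.03 ± 0.12 SE, adjusted p = 0.899). Slc3a1, the heavy chain of the renal cystine exchanger, had a difference of 0.24 and did not pass either. Of the 10 light chains, 1 was higher and 2 were lower. Slc7a6, the y+LAT2 chain that exports arginine in exchange for glutamine or leucine, was at 8.67, 7.91 and 8.34 in GFP-positive arrays, against 10.36, 10.10 and 10.21 in GFP-negative arrays. It was 3.78-fold lower in GFP-positive arrays (log2 change -1.92 ± 0.20 SE, adjusted p = 0.00271), the largest fall among the members. Its paralog Slc7a7, the y+LAT1 chain with the same exchange activity, ran the other way, at 8.56, 9.11 and 9.03 in GFP-positive arrays, against 7.76, 7.79 and 7.68 in GFP-negative arrays. Slc7a7 was 2.22-fold higher (log2 change 1.15 ± 0.16 SE, adjusted p = 0.00677), and every GFP-positive array exceeded every GFP-negative array.

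Slc7a8, the LAT2 chain for neutral amino acids, was at 6.41, 5.96 and 6.64 in GFP-positive arrays, against 7.75, 7.69 and 7.68 in GFP-negative arrays. It was 2.59-fold lower (adjusted p = 0.00517), and its adjusted p was 0.0625 without both arrays with the most immunoglobulin signal. Slc7a5, the LAT1 chain and a main entry route of leucine into dividing cells, was at 12.08, 12.08 and 12.11 in GFP-positive arrays, against 11.87, 11.81 and 11.88 in GFP-negative arrays. Its groups did not overlap, yet the log2 difference of 0.24 ± 0.08 SE did not pass (adjusted p = 0.111). Slc7a11, the cystine chain xCT, was dim, with 3.72, 4.61 and 3.43 in GFP-positive arrays, against 3.30, 3.19 and 3.00 in GFP-negative arrays (adjusted p = 0.144). The other 5 light chains, Slc7a9, Slc7a10, Slc7a12, Slc7a13 and Slc7a15, lay below the median intensity, with log2 differences from 0.04 to 0.45, and did not pass.

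In the cationic branch of Slc7, 2 of 5 members were higher. Slc7a4, a relative of the arginine carriers whose own substrate is not settled, was at 8.97, 8.68 and 8.60 in GFP-positive arrays, against 8.01, 7.42 and 7.77 in GFP-negative arrays. It was 2.02-fold higher (log2 change 1.02 ± 0.18 SE, adjusted p = 0.0151), although leaving out GFP-negative array 3 gave an adjusted p of 0.0531, and all 3 of its probe sets were called higher. Slc7a1, the general arginine and lysine carrier CAT1, was at 13.03, 13.14 and 13.19 in GFP-positive arrays, against 13.08, 13.10 and 13.17 in GFP-negative arrays. The groups overlapped, with a log2 difference of 0.00 ± 0.09 SE (adjusted p = 0.990). Slc7a3, a further arginine carrier, was dim, at 4.58, 4.72 and 4.71 in GFP-positive arrays, against 4.37, 4.14 and 4.10 in GFP-negative arrays. It was 1.38-fold higher (adjusted p = 0.0401), but with 1 array left out the call held only without GFP-negative array 1, with an adjusted p from 0.0576 to 0.130 in the other 5 settings. Slc7a2, the arginine carrier of macrophages and liver, had a log2 difference of -0.61, and Slc7a14, a lysosomal relative, of 0.19, and neither passed.

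The Slc43 carriers of large neutral amino acids split. Slc43a1, or LAT3, a facilitated carrier of leucine and other branched-chain amino acids, was at 9.30, 9.37 and 9.25 in GFP-positive arrays, against 8.27, 8.19 and 7.87 in GFP-negative arrays. It was 2.29-fold higher (log2 change 1.20 ± 0.13 SE, adjusted p = 0.00286). Slc43a2, or LAT4, which carries much the same substrates, was at 8.36, 7.38 and 7.61 in GFP-positive arrays, against 9.32, 9.30 and 9.52 in GFP-negative arrays. It was 3.02-fold lower (log2 change -1.60 ± 0.25 SE, adjusted p = 0.0104). The groups of both genes lay apart in opposite directions, and 2 of 3 probe sets of Slc43a2 were called lower. Slc43a3, a purine nucleobase carrier, had a log2 difference of 0.33 ± 0.09 SE just outside the threshold (adjusted p = 0.0663).

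Of the 2 neutral exchangers of the Slc1 family, 1 was higher. Slc1a4, the ASCT1 carrier of serine, alanine and cysteine, was at 11.63, 11.39 and 11.92 in GFP-positive arrays, against 10.89, 10.45 and 10.57 in GFP-negative arrays. It was 2.02-fold higher (adjusted p = 0.0152), and 2 of its 3 probe sets were called. Leaving out GFP-negative array 2 gave an adjusted p of 0.0554 for Slc1a4, leaving out GFP-negative array 3 gave 0.0597, and leaving out both arrays with the most immunoglobulin signal gave 0.125. Slc1a5, the ASCT2 glutamine carrier, averaged 8.91 ± 0.06 in GFP-positive arrays and 9.09 ± 0.12 in GFP-negative arrays (SD, n = 3 each) and did not pass (adjusted p = 0.284). The 5 glutamate carriers Slc1a1, Slc1a2, Slc1a3, Slc1a6 and Slc1a7, known mainly from brain, retina and kidney, were below the median intensity with log2 differences from 0.20 to 0.41, and none passed.

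Of the 9 Slc38 carriers 1 passed. Slc38a5, the SNAT5 carrier of glutamine, serine and glycine, was at 11.34, 11.43 and 11.39 in GFP-positive arrays, against 9.86, 9.54 and 9.67 in GFP-negative arrays. The spread within each group was small beside the gap, with SDs of 0.05 in GFP-positive and 0.16 in GFP-negative arrays. The gene was 3.25-fold higher (log2 change 1.70 ± 0.11 SE, adjusted p = 0.00108), and its adjusted p was at most 0.00758 with 1 array left out and 0.0238 without both arrays with the most immunoglobulin signal. The general glutamine and alanine carriers did not pass: Slc38a1 averaged 12.78 ± 0.04 in GFP-positive arrays and 12.87 ± 0.07 in GFP-negative arrays, and Slc38a2, which cells induce when amino acids are short, averaged 10.91 ± 0.04 in GFP-positive arrays and 11.07 ± 0.09 in GFP-negative arrays (SD, n = 3 each). Slc38a9, the lysosomal arginine sensor upstream of mTORC1, had 7 probe sets with log2 differences from 0.29 to 1.39, and none of them passed. Slc38a6 was at 6.84, 6.14 and 8.28 in GFP-positive arrays, against 8.62, 8.76 and 7.99 in GFP-negative arrays. Array 3 lay inside the other group on both sides, and the adjusted p was 0.143 with all arrays and 0.0229 without GFP-positive array 3. Slc38a7, a lysosomal glutamine carrier, had SDs of 0.18 in GFP-positive and 0.35 in GFP-negative arrays and did not pass (adjusted p = 0.995). Slc38a10, at a log2 difference of -0.13, did not pass either. Nor did Slc38a3 and Slc38a4, known from the liver, at 0.30 and 0.19 (adjusted p = 0.0732 and 0.437).

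Slc36 carriers were lower where they passed, 2 of 4 with 0 higher. Slc36a1, or PAT1, which moves small neutral amino acids out of lysosomes and takes part in mTORC1 signalling, was at 7.46, 7.57 and 7.70 in GFP-positive arrays, against 8.95, 8.78 and 9.01 in GFP-negative arrays. It was 2.53-fold lower (log2 change -1.34 ± 0.11 SE, adjusted p = 0.00148). Slc36a4, a high-affinity carrier of proline and tryptophan, was at 9.91, 9.53 and 10.24 in GFP-positive arrays, against 10.94, 11.23 and 11.16 in GFP-negative arrays. It was 2.32-fold lower (adjusted p = 0.0108, and 0.105 without both arrays with the most immunoglobulin signal). Slc36a2, a glycine and proline carrier, was at 7.76 in GFP-positive array 1 and at 5.49 and 5.20 in GFP-positive arrays 2 and 3, against 6.12, 6.77 and 6.32 in GFP-negative arrays. The groups overlapped through GFP-positive array 1, and the adjusted p was 0.822 with all arrays and 0.0438, at a log2 change of -1.06, without that array. Slc36a3 was dim and had a difference of 0.20.

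**Figure D4:**
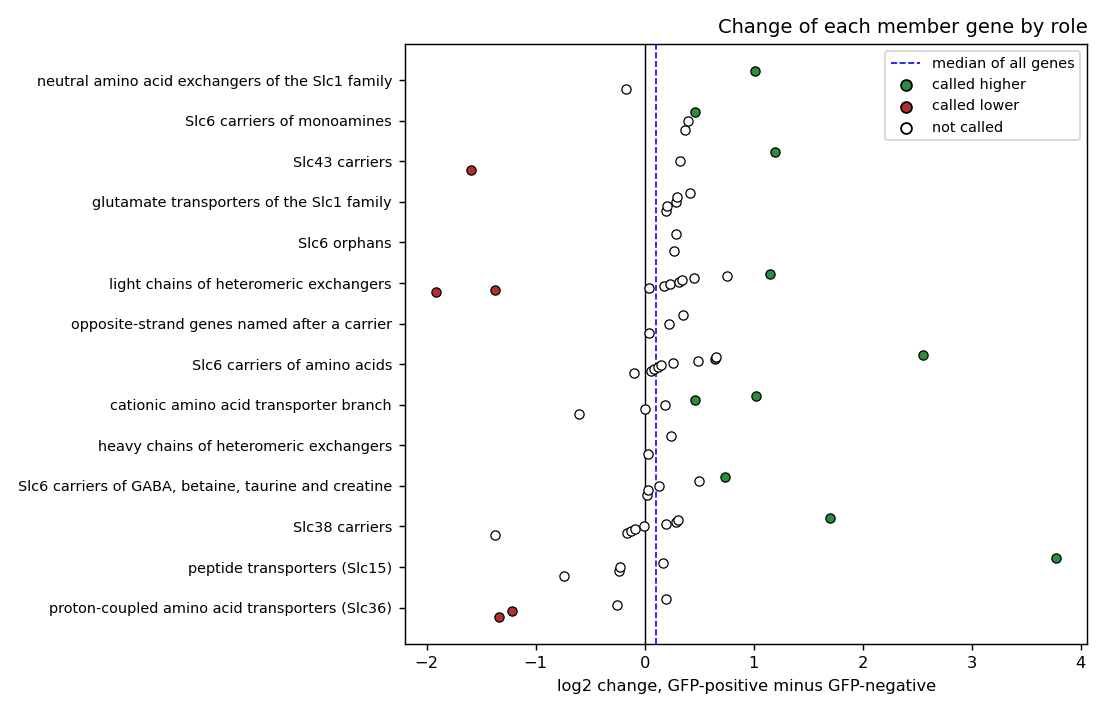
Log2 change (GFP-positive minus GFP-negative) of all 68 member genes, 1 point each, in rows by role, with green for called higher, red for called lower and white for not called. The blue dashed line is the median of all genes, 0.11, and the light chains, the Slc43 carriers and no other role have calls on both sides of 0.

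Different probe sets of a gene mostly gave the same direction. Of the 133 member probe sets, 24 were called, or 18.0%, beside 14.0% of all 45037 probe sets. Several probe sets were present for 34 member genes, and no member had probe sets called in both directions. Both probe sets of Slc7a6, of Slc7a7 and of Slc6a9 were called in the direction given above. Among the genes with a call, Slc7a6os, a neighbour of Slc7a6 in the genome, was the exception. Its brighter probe set was at 6.95, 7.15 and 7.11 in GFP-positive arrays, against 6.68, 6.64 and 6.84 in GFP-negative arrays, and did not pass (adjusted p = 0.0759). Its other probe set was at 5.82, 5.13 and 5.41 in GFP-positive arrays, against 8.19, 7.94 and 7.29 in GFP-negative arrays, and was called lower (log2 change -2.35 ± 0.28 SE, adjusted p = 0.00388). The files do not say which strand or transcript that probe set reads. The other opposite-strand genes, Slc36a1os and Slc6a19os, were dim and did not pass.

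**Figure D5:**
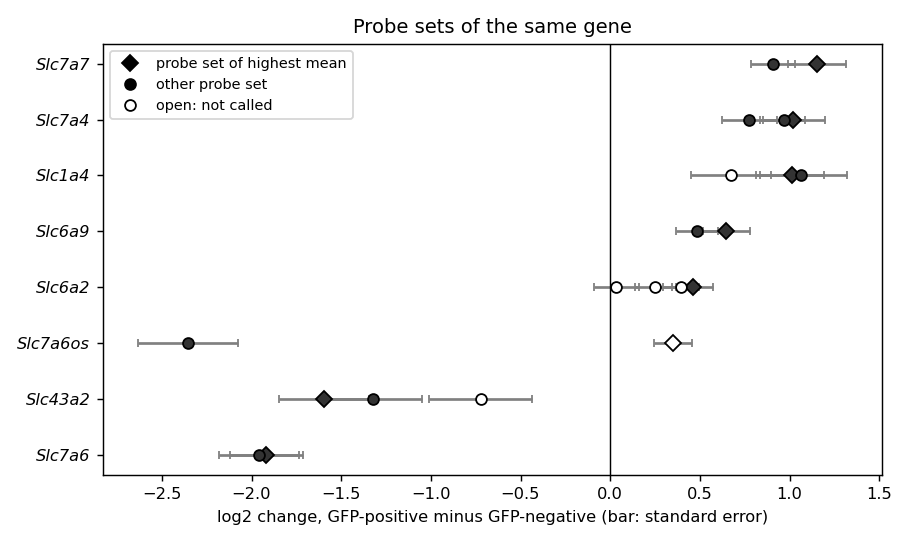
Log2 change (GFP-positive minus GFP-negative) with its standard error for each probe set of the 8 member genes that have several probe sets and at least 1 call, with diamonds for the probe set of highest mean and open symbols for probe sets that were not called. Slc7a6os is the gene whose probe sets lie on both sides of 0, at 0.35 and -2.35.

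Other amino acid genes also ran in both directions. Over all 18193 genes, 8.15% were higher and 9.92% lower, with a median log2 change of 0.11. Of 23 measured targets of the ATF4 amino acid response, 5 were higher (21.7%) and 1 lower (4.35%), with a median of 0.13. Asns, asparagine synthetase, rose by 1.27 on the log2 scale (adjusted p = 0.00169). Sesn2, a leucine sensor, and Eif4ebp1, a brake on translation, rose by 0.94 and 0.66, while Gpt2, a mitochondrial alanine transaminase, had a change of -1.22. With 1 array left out, Asns kept its call in all 6 settings, Sesn2 in 2, and Eif4ebp1 and Gpt2 in 1 each, and the count of higher targets was between 1 and 4. Atf4 itself had a log2 difference of 0.22 and did not pass. Of 29 genes of amino acid sensing, 2 were higher and 2 lower (6.90% each), with a median of 0.06. They were listed for mTORC1, apart from Eif2ak4 and Gcn1, which did not pass. The sestrin Sesn2, which was higher, was counted with the ATF4 targets and not in this list. The 4 called genes of the list were Wdr59 and Mios, subunits of the GATOR2 complex, at 0.68 and 0.63, and the sestrins Sesn3 and Sesn1 at -1.42 and -0.56. With 1 array left out, Sesn3 and Sesn1 kept their calls in 4 of 6 settings each, Mios in 1 and Wdr59 in 0. Without GFP-positive array 2 or GFP-negative array 2, none of these 4 kept its call (adjusted p from 0.0526 to 0.112).

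Cytosolic aminoacyl-tRNA synthetases charge transfer RNA with amino acids. Of 18, 3 were higher (16.7%, beside 8.15% of all genes) and 0 lower (beside 9.92%), with a median of 0.36. Yars, Iars and Gars had log2 changes of 0.44, 0.44 and 0.41, and each kept its call in 1 of the 6 settings that leave out 1 array. Of 10 genes of glutathione synthesis and cystine use, 3 were higher (30%) and 0 lower, with a median of 0.37. Chac2, a glutathione-degrading enzyme, rose by 1.40, Gclm, a subunit of the first enzyme of glutathione synthesis, by 0.76, and Gss, the second enzyme, by 0.67 (adjusted p = 0.00391, 0.00337 and 0.00886). All 3 kept their calls with any 1 array left out. Without both arrays with the most immunoglobulin signal, Gclm kept its call (adjusted p = 0.0400), while Chac2 and Gss had adjusted p-values of 0.0559 and 0.0860.

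Of 16 enzymes of glutamine, serine, arginine, proline and branched-chain metabolism, 3 were higher and 3 lower (18.8% each), with a median of 0.09. The shares over all genes were 8.15% higher and 9.92% lower. Bcat1, the cytosolic transaminase of branched-chain amino acids, was at -2.51 on the log2 scale (adjusted p = 0.000968), Shmt1, which converts serine to glycine, at -1.17 (adjusted p = 0.00286) and glutamate dehydrogenase Glud1 at -0.97. The ornithine transaminase Oat had a change of 0.65. Bcat1 and Shmt1 kept their calls with any 1 array left out, and Glud1 and Oat in 2 of 6 settings each. Among 14 amino acid carriers of other families, 3 were higher (21.4%) and 0 lower, with a median of 0.08. They were Slc25a38, the mitochondrial glycine carrier of heme synthesis, at 1.54, Slc25a44, a mitochondrial carrier of branched-chain amino acids, at 0.71 and Slc16a10, a carrier of aromatic amino acids, at 0.60. With 1 array left out, the first 2 kept their calls in all 6 settings and Slc16a10 in 3.

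Markers of several lineages, among them those of the sorted myeloerythroid progenitors, also differed between the groups. Their part in the transporter differences was not tested. Over all 18193 genes, 8.15% were higher and 9.92% lower. Of 8 erythroid markers, 5 were higher and 0 lower, and their summed intensity was 19135 to 23073 in GFP-positive arrays, against 11153 to 11222 in GFP-negative arrays. Of 9 monocyte and dendritic markers, 0 were higher and 7 lower, with sums of 3158 to 5309 in GFP-positive arrays, against 18582 to 18811 in GFP-negative arrays. The 10 granulocyte markers had 5 lower and 0 higher, with sums of 36027 to 41442 in GFP-positive arrays, against 49921 to 56848 in GFP-negative arrays. The 5 lower ones were Mpo, Elane, Prtn3 and Ctsg, primary granule proteins, and the receptor Csf3r, while the later neutrophil genes Ltf, Camp, Ngp, S100a8 and S100a9 had log2 differences of 1.17, 2.05, 1.55, 0.90 and 0.98 and did not pass. The median over the 10 was 0.19, opposite in sign to the change of the sums. The 9 mast cell, basophil and eosinophil markers had 5 lower and 1 higher, with sums of 7109 to 10546 in GFP-positive arrays, against 15785 to 16947 in GFP-negative arrays. Of 9 T and NK cell markers, 2 were higher, the granzymes Gzmb (15.9-fold, adjusted p = 0.000936) and Gzma (8.17-fold, adjusted p = 0.0124), and 1 was lower, Nkg7, at -1.16 on the log2 scale. Their sums were 3474 to 4993 in GFP-positive arrays, against 7334 to 7820 in GFP-negative arrays. The median log2 change of the 9 was 0.58, opposite in sign to the change of the sums. Of 9 B and plasma cell markers, 0 were higher and 2 lower, Cd79b at -1.85 and Ighm at -1.96, with sums of 1127 to 1824 in GFP-positive arrays, against 2814 to 3810 in GFP-negative arrays. The median over these 9 was 0.10, also opposite in sign to the change of the sums. Of 5 megakaryocyte markers 1 was higher, Vwf at 0.63, with sums of 5395 to 6206 in GFP-positive arrays, against 3826 to 4829 in GFP-negative arrays. Of 7 stromal and endothelial markers 1 was lower, Pecam1 at -1.75. The sums were 329 to 544 in GFP-positive arrays, against 472 to 511 in GFP-negative arrays. Col1a1 and Cxcl12 had log2 differences of 1.90 and 1.41 and did not pass. Of the 7, 5 had differences above 0, and the median was 0.22. None of the 6 lineage antigens passed limma's test, although Il7r and Cd5 lay just outside the threshold (adjusted p = 0.0520 and 0.0608). The 6 split in direction, with 3 above 0. Il7r, Cd5 and Cd4 had log2 differences of -0.93, -0.38 and -0.30, against 0.79, 0.55 and 0.11 for Cd3e, Cd8a and Itgam. The sums of the 6 were 313 to 382 in GFP-positive arrays, against 386 to 443 in GFP-negative arrays. Another 4 genes were Kit, by which both groups were sorted, and Cd34 and 2 Fc gamma receptor genes, whose antigens divide these progenitors. Of the 4, 3 were lower and 0 higher, with Cd34 at -1.37, Fcgr3 at -1.73 and Fcgr2b at -2.31 on the log2 scale. No marker is listed at 0, since the deposited values have a floor above it. The immunoglobulin probe sets summed to 8634 in GFP-positive array 1 and to 2144 and 2157 in GFP-positive arrays 2 and 3, against 3336, 3010 and 7288 in GFP-negative arrays 1, 2 and 3.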

How the data were processed

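The authors deposited linear intensity values per probe set, made with RMA per the submitters' processing notes. The sources used here do not state the version of RMA. Per the labels, 5 ng of total RNA was amplified and biotin-labelled for each array. Values ran from 4.27 to 24551, with array medians between 59.9 and 64.9, and were taken to log2 without further normalization. The 64 array controls were left out, which left 45037 probe sets. Genes were named from GEO's platform annotation, with 34945 probe sets of 1 gene, 932 of several and 9160 of none, and all 68 members matched the RefSeq table of GRCm38.p6 by gene ID and symbol.

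The comparison used limma (version 3.58.1, R 4.3.3; lmFit, eBayes, 2-sided, no covariate, 6.38 total degrees of freedom), and p-values were adjusted by Benjamini-Hochberg across the 45037 probe sets. The procedure was tested on simulated data. Python 3.11.15, pandas 2.3.3, numpy 2.4.6 and matplotlib 3.10.9 made the tables and plots. All members may be named, the called ones in full, with those of adjusted p from 0.03 to 0.08, the 6 of highest mean and, added after their values were seen, those that varied most within a group. From each companion list up to 4 called genes of largest change were named. Members, roles and lists were chosen with earlier results of these data known. Same-numbered arrays of both groups correlated at 0.0231, 0.0547 and 0.0191 in their deviations from the group means and were treated as unpaired.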

Additional observations from a re-analysis of the deposited data

How the results depend on the processing

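The counts of higher and lower members, 11 and 5, stayed within 1.5 times under the trended robust fit, repeated quantile normalization, array quality weights, a pseudocount of 32 and the probe set of highest variance, and with the probe sets above the median intensity. They did not with the brightest 11260 probe sets (6 and 2, with fewer members tested), a fold floor of 1.5 (4 and 2) or without both arrays with the most immunoglobulin signal (5 and 3, with fewer arrays). The count of higher members was 19 with array medians subtracted and 17 with the mean of all probe sets of a gene. In the setting of gene means, the fit and the adjustment of p ran over 18193 genes, not over 45037 probe sets. The cause of either count was not tested. With 1 array left out, 6 to 10 members were higher and 5 to 6 lower, and 10 of the 16 called members kept their call in each case. The median log2 change of the members, 0.20, was 0.18 after quantile normalization, 0.28 with array medians subtracted, 0.0197 over the probe sets above the median intensity, 0.0232 over the brightest 11260, 0.23 with array quality weights, 0.0846 with the pseudocount, 0.19 with the mean of all probe sets of a gene and 0.19 to 0.23 with 1 array left out. Over 29 member genes and 16 settings, 371 of 440 values kept their side of the threshold, 42 lost the call, 27 gained it, and no called value changed sign. With the replicate number as a block, 10 members were higher and 5 lower, and 14 calls were shared with the unpaired fit. In that block fit Slc6a2 and Slc7a3 lost their calls and Slc6a8 gained a call. The brightest probe set of Slc15a2 had an adjusted p of 0.0606 there. Each array correlated best with its own number, a hint from the data and not from the design. Members of low intensity, 37 of 68, lie near the dim end of the arrays, where signal over background limits what can be detected.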
